A study of Arabidopsis thaliana with 33 samples.

Results

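H2A.Z peaks of brm shoots were set against those of WT shoots of Arabidopsis thaliana. The 2 brm lists held 15639 and 14300 peaks and the 2 WT lists 9871 and 15262 peaks, 55072 regions of the 62373 in the 6 H2A.Z peak lists of the series. All peaks of those 4 libraries were taken, with no choice by value. The brm plants carried the brm-1 allele, and the WT plants carried no stated mutation. Plants of both genotypes grew on soil in 16 h of light and 8 h of dark, received no treatment, and were taken as shoots with 4 to 5 leaves. Each genotype gave 2 biological replicates for ChIP, each with an input library.

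H2A.Z is a variant of histone H2A that the SWR1 complex places into nucleosomes, often at the first nucleosomes of a gene and along the bodies of genes that respond to the environment. BRM is an ATPase of the SWI/SNF family that moves or removes nucleosomes. A peak here is a stretch of the genome where ChIP tags were denser than in the input and in the surroundings, so it marks detectable H2A.Z and not its amount.

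The RNA-seq comparison of brm and WT is labelled as nuclear RNA. In the authors' deposited table of RNA-seq, BRM (AT2G46020) itself stood at -5.64 as log2 of brm over WT, with an adjusted p of 4.20e-94. The shoot markers RBCS1A and LHCA1, a Rubisco subunit and a light-harvesting protein, had average log2 CPM of 12.05 and 11.09 in that table. The root auxin transporter PIN2 had -2.53. PYK10, a beta-glucosidase best known from roots, had 6.20.

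The libraries held 11034796 and 5553946 tags in brm, and 10302678 and 15765419 tags in WT, per the file headers. brm 1, brm 2 and WT 2 were called alike, at a false discovery rate of 0.01, with at least 3 times the input and 4 times the local tag density. WT 1 was called at a Poisson p of 0.001, with 4 times the input and 1 times the local density. WT 2 is therefore the like-called WT list, and WT 1 is given beside it. Tags in peaks made up 42.51% in brm 1 and 35.3% in brm 2, against 24.26% in WT 1 and 41.83% in WT 2.

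Against WT 2, the 2 brm lists lay on both sides in number and covered length. brm 1 had 377 peaks more than WT 2, and the difference of brm 2 from WT 2 was -962. The brm lists differed from each other by 1339 peaks. brm 1 covered 17.5 Mb and brm 2 covered 14.4 Mb, against 17.3 Mb in WT 2 and 8.99 Mb in WT 1. The mean of brm minus WT 2 was -1.37 Mb, smaller in size than the SD of 2.20 Mb between the brm replicates (n = 2). The list from the library with the fewest tags, brm 2, had the lowest number and covered length of the 3 like-called lists; the part of depth in this was not tested.

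Median peak width was 906 bp in brm 1 and 814 bp in brm 2, against 776 bp in WT 1 and 913 bp in WT 2. Peaks at the smallest width the caller gave, 501 bp, made up 17.2% and 23.0% of the brm lists, against 26.2% of WT 1 and 14.8% of WT 2. Peaks of at least 1000 bp made up 44.3% and 35.7% in brm, against 30.7% and 46.6% in WT. In all 3 width measures brm 1 differed less from WT 2 than from brm 2, and brm 2 was the narrowest of the like-called lists.

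**Figure D1:**
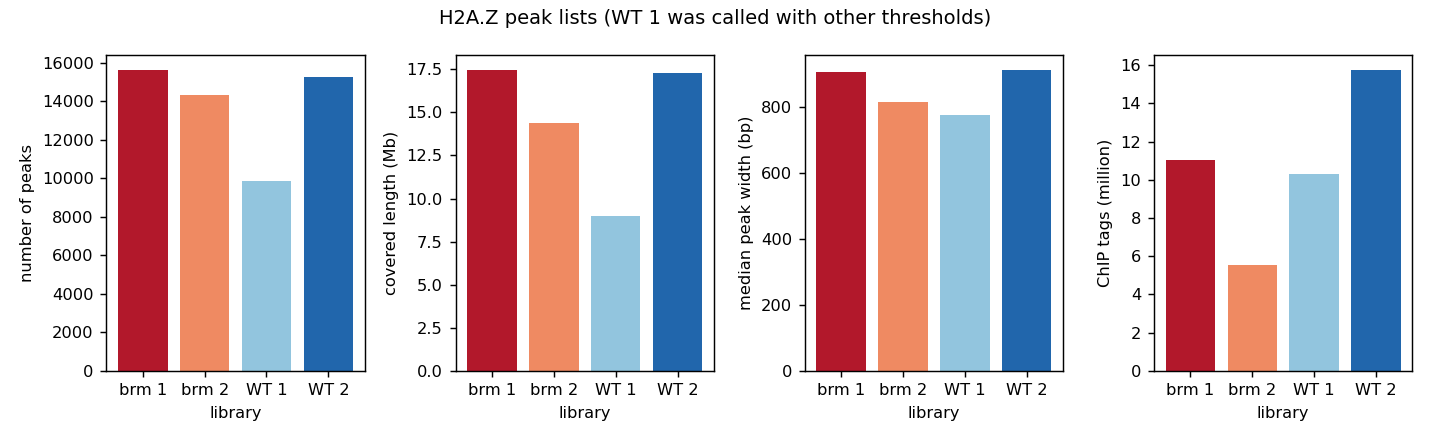
Bars give the number of peaks, the covered length in Mb, the median peak width in bp and the ChIP tags for each library, with 1 bar per library and no error bar. brm 1 and WT 2 stand close at 15639 and 15262 peaks, brm 2 has 14300, and WT 1, called with other thresholds, has 9871.

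With both WT lists, brm exceeded WT by 2403 peaks (14969.5 ± 947 in brm and 12566.5 ± 3812 in WT, SD, n = 2 each), and a two-sided exact permutation test gave p = 0.667. The WT SD includes the difference in calling thresholds between WT 1 and WT 2. Covered length differed by 2.78 Mb, with an exact permutation p of 0.667. Median width differed by 15.5 bp, with an exact permutation p of 1. The smallest p that 2 against 2 libraries allow is 0.333, and the Benjamini-Hochberg adjusted p was 1 for each of the 5 tests made over libraries. Without WT 1 the differences in number, covered length and median width were -292.5 peaks, -1.37 Mb and -53 bp. Without brm 1 the width difference was -30.5 bp.

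Most positions were shared. WT 2 met 77.8% of the brm 1 peaks and 79.0% of the brm 2 peaks, an overlap of at least 1 bp counting. Between the brm replicates, brm 2 met 72.1% of the brm 1 peaks and brm 1 met 80.6% of the brm 2 peaks. brm 1 was thus met more often by WT 2 than by its own replicate. In the other direction, 79.9% of the WT 2 peaks were met by brm 1, 72.6% by brm 2, 64.4% by both and 11.9% by neither. Of the shorter WT 1 list, brm 1 met 86.0% and brm 2 met 79.7%, while WT 2 met 85.7%.

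The Jaccard index, the shared bases over all bases covered by either list, was 0.584 for brm 1 with WT 2 and 0.524 for brm 2 with WT 2. It was 0.529 between the brm replicates and 0.404 between the WT replicates. The shorter WT 1 list, called with other thresholds, gave 0.397 with brm 1 and 0.396 with brm 2. Lists of the same genotype differed in the index by -0.00884 from lists of different genotypes, and the two-sided exact permutation test over the 3 ways to pair the lists gave p = 1.

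Wider peaks were shared more often in every pair of like-called lists. Of the 501 bp peaks of brm 1, 42.5% were met by WT 2 (95% Wilson interval 40.7% to 44.4%) and 36.3% by brm 2. Of its peaks over 3000 bp, 98.0% were met by WT 2 and 97.8% by brm 2. In WT 2, 46.6% of the 501 bp peaks and 98.4% of those over 3000 bp were met by brm 1. The share was higher in each wider class, apart from brm 1 peaks met by WT 2, with 93.8% of those over 1000 and up to 1500 bp and 93.5% of those over 1500 and up to 2000 bp. Wilson intervals cover counting error only.

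**Figure D2:**
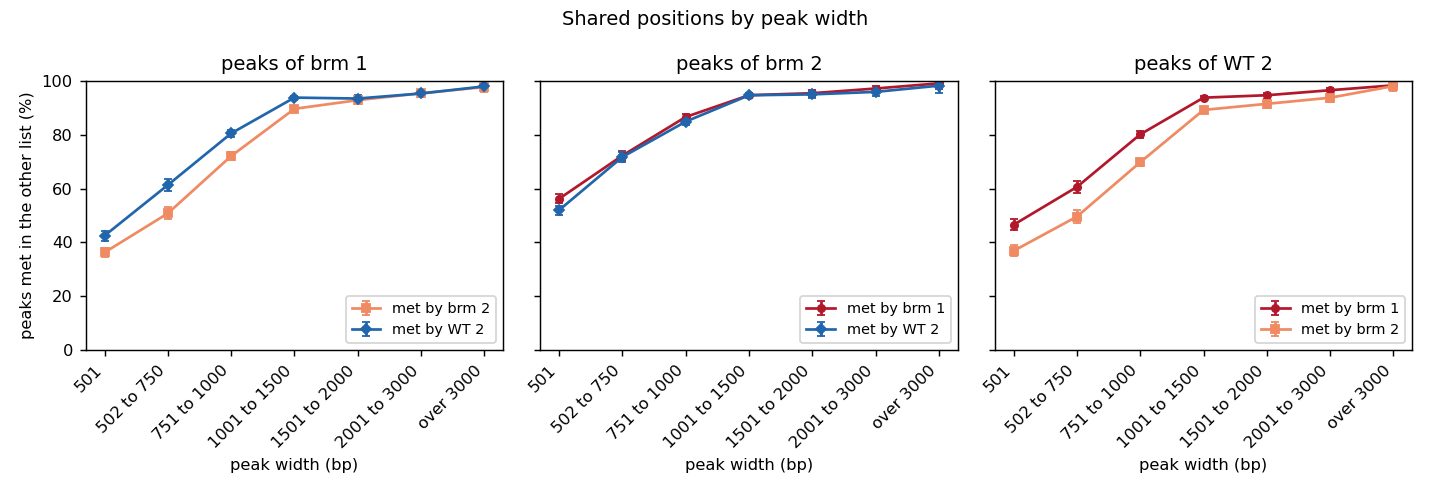
Points give the percentage of peaks of brm 1, brm 2 and WT 2 that another like-called list met, by peak width in bp, with 95% Wilson intervals. Narrow peaks are shared least in each panel, and 42.5% of the narrowest brm 1 peaks but 98.0% of the widest were met by WT 2.

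Merging the 3 like-called lists gave 19789 regions. All 3 lists held a peak in 9643 of them (48.7%), and these covered 15.6 Mb. Regions found in a pair of lists numbered 1416 for the 2 brm lists without WT 2, 2234 for brm 1 and WT 2 without brm 2, and 1210 for brm 2 and WT 2 without brm 1. The pair of the same genotype was thus not the largest. Regions found in 1 list numbered 2006 for brm 1, 1461 for brm 2 and 1819 for WT 2, with median widths of 501, 501 and 626 bp. With all 4 lists, 995 regions held peaks of both brm lists and of neither WT list, against 268 with peaks of both WT lists and of neither brm list. The shorter WT 1 list enters both of those counts.

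Peaks that met exactly 1 peak of the other list, and were its only partner, had their widths compared. For 11424 such pairs of brm 1 and WT 2 the median log2 width ratio was 0, and the median distance between centres was 80.5 bp. For 10435 pairs of brm 2 and WT 2 the median ratio was -0.15. For 10662 pairs of brm 1 and brm 2 it was 0.14. Peaks of brm 2 were thus narrower than their partners in its own replicate and in WT 2 by similar ratios. Widths of brm 1 were 0.33 above those of WT 1 on the log2 scale.

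Splitting and joining were rare. Of the WT 2 peaks, 1.57% met 2 or more peaks of brm 1 and 2.33% met 2 or more of brm 2. Of the brm peaks, 1.69% in brm 1 and 1.06% in brm 2 met 2 or more WT 2 peaks. Between the brm replicates, 2.37% of the brm 1 peaks met 2 or more peaks of brm 2, and 0.909% the other way. In the 9643 regions shared by the 3 lists, 8810 held 1 peak of each. Both brm lists held more peaks than WT 2 in 111 of these regions and fewer in 166, while brm 2 held more than both others in 281 and brm 1 in 132.

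Of the WT 2 peaks, 104 met at least 2 peaks in each brm list, and another 4 met at least 3 in each. The widest peak of WT 2, chr3:3946092-3956976, measured 10885 bp and met 3 peaks in each brm list, which covered 9837 bp in brm 1 and 7795 bp in brm 2, while WT 1 had 4 peaks there. At chr2:14028249-14037495, over the receptor-like protein genes RLP27 and RLP28 and the cellulose synthase-like gene CSLD1, brm 1 covered 6054 bp and brm 2 6082 bp in 3 peaks each, against 3886 bp in 3 peaks of WT 1 and 9247 bp in 1 peak of WT 2. At chr1:9270660-9275408, over the transcription factor gene MYB117, 3 peaks in each brm list covered 2728 and 2218 bp, against 1869 bp in 2 peaks of WT 1 and 4749 bp in 1 peak of WT 2. At chr3:3561123-3568966, over AT3G11370 and AT3G11380, brm 1 had 3 peaks of 5669 bp in all and brm 2 had 4 of 5629 bp, against 4 of 3396 bp in WT 1 and 1 of 7844 bp in WT 2. WT 1 thus also held more than 1 peak at all 4 places.

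Joining was seen in brm 1 at chr2:15830739-15835882, over the aldo-keto reductase genes AKR4C8 and ChlAKR, where 1 peak of brm 1 measured 5144 bp, brm 2 had 2 peaks, and WT 1 and WT 2 had 3 peaks each. At chr2:18779244-18784452, over the cytochrome P450 genes CYP76C2 and CYP76C3, brm 1 covered 5209 bp and brm 2 2423 bp in 1 peak each, against 648 bp in 1 peak of WT 1 and 3450 bp in 3 peaks of WT 2. CYP76C2 fell in RNA, at a log2 ratio of -4.35 per the authors' deposited table. Among brm 2 peaks, the one at chr2:18401919-18407279, over AT2G44580 and DL1D, measured 5361 bp and met 2 peaks of brm 1, 2 of WT 1 and 3 of WT 2.

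The widest peak of brm 1, chr5:26738521-26745216, measured 6696 bp over a stretch with RKD3, a transcription factor gene, while brm 2 covered 3747 bp of it in 4 peaks, against 0 bp in WT 1 and 2050 bp in 1 peak of WT 2. The widest of brm 2, chr5:10636699-10643894, was 7196 bp, with 6323 bp covered in brm 1, against 6465 bp in WT 1 and 7196 bp in WT 2. It lay over AT5G28630, which rose in RNA at a log2 ratio of 1.74 per the authors' deposited table. One of these widest peaks was thus far shorter in WT 2, and the other was as wide there. RLP27 and RLP28 have close relatives, so tags may have been shared among copies.

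Peaks were spread over the 5 chromosomes in nearly the same shares in each list. Chromosome 1 held 26.5% and 26.8% of the brm peaks, against 26.9% and 26.6% of the WT peaks, and chromosome 4 held 15.4% and 15.1%, against 15.1% and 15.4%. Peaks within 2 Mb of a centromere made up 3.18% and 3.27% of the covered length in brm, against 3.39% in WT 1 and 3.37% in WT 2. The brm mean was 0.15 percentage points below WT 2.

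In windows of 1 Mb, coverage climbed from centromere to arm in all 4 lists. Windows under 1 Mb away had a median of 0.863% and 0.685% covered in brm, against 0.4996% and 0.818% in WT. Windows 11 Mb or more away had 19.5% and 15.8% in brm, against 9.86% and 19.0% in WT. Across 115 windows with coverage in both lists, Pearson's r was 0.990 between brm 1 and WT 2, given as a description since windows share a library. After the whole-list difference was taken out, 112 of these windows lay within 1.2-fold.

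**Figure D3:**
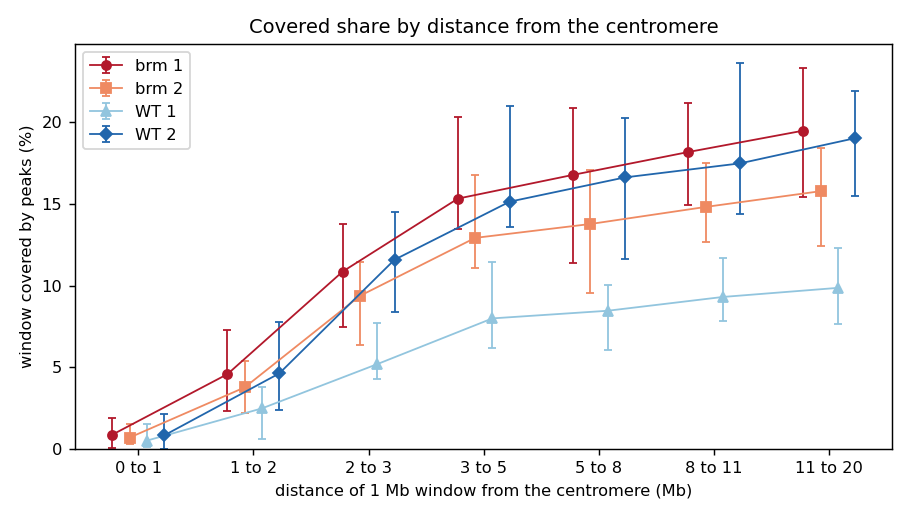
Points are the median percentage of 1 Mb windows covered by peaks, by distance from the centromere in Mb, and bars run from the lowest to the highest window. All 4 libraries climb outwards, and brm 1 and WT 2 end at 19.5% and 19.0%.

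A protein-coding gene was met by 93.04% of the brm 1 peaks and 92.9% of the brm 2 peaks, against 93.3% in WT 1 and 93.2% in WT 2. Of 27444 such genes, peaks met 57.3% in brm 1 and 51.2% in brm 2, against 34.9% in WT 1 and 56.3% in WT 2. With both WT lists the difference was 8.63 points, with an exact permutation p of 0.667. In genes that were met, peaks covered a median of 41.6% and 38.0% of the gene in brm, against 36.1% and 42.6% in WT. Genes met in both brm lists and not in WT 2 numbered 1386 (5.05% of genes), and those met in WT 2 and neither brm list 1446 (5.27%). With all 4 lists, 961 genes were met in both brm lists and neither WT list (3.5%), against 243 in both WT lists and neither brm list (0.885%). For comparison, 2345 genes were met in brm 1 and WT 2 but not brm 2.

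Among protein-coding genes with an RNA value, peaks were more frequent on weakly expressed ones. In the lowest of 5 equal classes of average log2 CPM in the authors' deposited table, 72.5% and 66.3% of genes were met in brm, against 51.4% and 71.5% in WT. In the highest class the shares were 45.1% and 39.9% in brm, against 19.2% and 44.5% in WT. The covered share of a met gene was also lower in the highest class than in the lowest, at 27.1% and 25.6% in brm and 23.1% and 28.4% in WT in the highest class. The share of genes met was lower in each higher class in all 4 libraries, while the covered share was slightly higher in the top class than in the next in all but WT 1. The 6532 protein-coding genes without an RNA value are in none of these classes. They were met in 50.9% and 46.0% in brm, against 34.0% and 50.5% in WT, below the lowest class in each library.

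**Figure D4:**
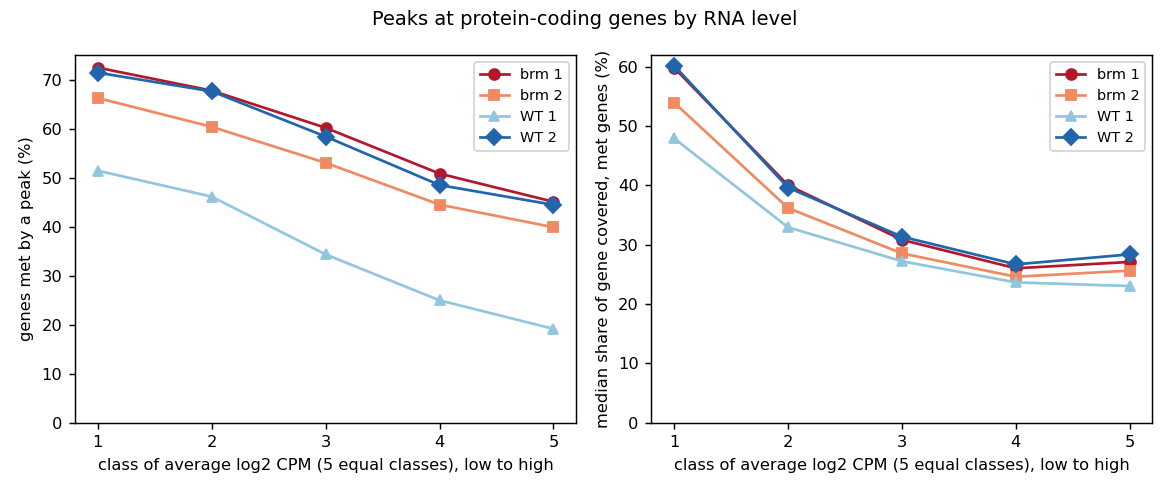
Lines give the percentage of protein-coding genes met by a peak (left) and the median percentage of a met gene that peaks covered (right), by class of average log2 CPM, low to high, for each library. Genes without an RNA value are left out. The share met is 72.5% in the lowest class and 45.1% in the highest for brm 1, with 71.5% and 44.5% for WT 2.

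The authors' deposited table called 13.8% of its 21925 rows in either direction. Of the protein-coding genes listed, 7.84% were higher in brm and 6.33% lower at an adjusted p under 0.05. Among genes met in all 3 like-called lists, 4.95% were higher and 7.17% lower. Among genes met in none of them, 12.7% were higher and 4.98% lower. Genes met in both brm lists and not in WT 2 were higher in 8.62% and lower in 5.60% of cases. Genes met in WT 2 and neither brm list were higher in 7.69% and lower in 8.78%. The table holds no value per library, so these shares have no test over samples. In whole shoots, fewer cells of a type and less nuclear RNA per cell cannot be told apart.

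Read the other way, genes lower in brm were met in 62.6% by brm 1 and 57.6% by brm 2, against 33.9% by WT 1 and 67.2% by WT 2. Genes not called were met in 60.4% and 53.9%, against 35.9% and 59.1%. Relative to genes not called, those lower in brm were met less often in brm than in WT 2, by -5.99 points in brm 1 and -4.38 points in brm 2. Against WT 1 the same differences were 4.17 and 5.77 points. The direction thus turned with the WT list. For genes higher in brm they were 2.40 and 2.90 points against WT 2, and -9.55 and -9.06 points against WT 1.

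The 5 genes whose RNA rose most in brm, among called genes averaging 1 or more in log2 CPM, had no common peak pattern. CYP82G1, a cytochrome P450 of homoterpene synthesis that the authors' deposited table puts at a log2 ratio of 8.90, had 501 bp covered in brm 1 and 756 bp in brm 2, against 501 bp in WT 1 and 0 bp in WT 2. TAT3, a tyrosine aminotransferase induced by jasmonate, had 56 and 723 bp in brm, against 533 and 1709 bp in WT. ABR1, an ERF family factor, had 662 and 0 bp in brm, against 0 and 756 bp in WT. AT3G57460 had 501 and 0 bp in brm, against 558 and 0 bp in WT. AT1G49000 was met only in WT 1, by 501 bp.

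Of the 5 genes whose RNA fell most, DFR, an enzyme of anthocyanin synthesis that the authors' deposited table puts at a log2 ratio of -4.93, had 898 and 629 bp in brm, against 501 and 1347 bp in WT. XTH31, a xyloglucan-modifying enzyme of the cell wall, had 0 and 501 bp in brm, against 0 and 1069 bp in WT. GSTF12, which serves anthocyanin transport, and AT2G29300 were met in no list.

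The fifth of these is BRM. A region inside the gene, chr2:18929056-18931794, held a peak of 2739 bp in brm 1 and 948 bp in brm 2, against 0 bp in both WT lists. It was among the 5 widest regions with peaks of both brm lists and neither WT list. The coordinates here and elsewhere are those of the peak files, in TAIR10. The others of that set lay at chr3:22109043-22112811 over AT3G59850, at chr5:18030491-18033871 over the receptor kinase gene GSO2, at chr2:594592-597731 over PP2-B2, and at chr5:5355509-5358628 over AAE5. AAE5, an acyl-activating enzyme, stood at a log2 ratio of -1.05 (adjusted p 0.00517) in the authors' deposited table. AT3G59850 and GSO2 did not pass in that table.

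The widest region with peaks of both WT lists and neither brm list, chr5:3627883-3630626, lay over AT5G11370 and DXPS3 and held 0 bp in both brm lists, against 501 bp in WT 1 and 2744 bp in WT 2. The second lay at chr4:10263146-10265641 over the receptor-like kinase gene MRH1. The third, chr3:9170235-9172469, met the pseudogene AT3G25182, which follows CYP82G1 in the gene table, and held 0 bp in brm, against 1423 and 2224 bp in WT. The fourth lay at chr2:6827884-6829966 over AT2G15670. The fifth, chr4:174816-176869, lay over GPAT8, an acyltransferase of cutin synthesis, whose log2 ratio was -0.85 (adjusted p 0.00602) in the authors' deposited table.

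All 5 heat response genes were met in brm 1, brm 2 and WT 2, against 38.2% of all protein-coding genes. HSP70, a chaperone, had 94.3% and 71.2% of its length covered in brm, against 92.9% and 85.1% in WT. HSFA2, a heat shock factor, had 72.9% and 59.3% in brm, against 68.7% and 75.2% in WT. HSP17.6A, a small heat shock protein gene, was covered whole in all 4 lists. HSP90.1 had 52.2% and 49.7% in brm, against 0% in WT 1 and 55.3% in WT 2. None of the 5 passed in the RNA table, where 13.8% of all rows were called in either direction.

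The PIN genes examined, PIN2, PIN3, PIN4 and PIN7, which encode auxin efflux carriers, were also met in brm 1, brm 2 and WT 2. PIN2 had 43.6% and 31.8% covered in brm, against 0% and 54.0% in WT. PIN7 had 37.8% and 61.0% in brm, against 26.8% and 53.5% in WT, so the brm lists lay on both sides of WT 2. PIN3 and PIN4 rose in brm, by log2 ratios of 0.81 and 0.92 according to the authors' deposited table, and were met in all 4 lists. Over all protein-coding genes listed there, 7.84% were higher in brm.

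Among 7 flowering repressors, 2 were met in all 3 like-called lists, a share near the 38.2% of all protein-coding genes. FLC, the central repressor of flowering, had 13.4% covered in brm 1 and 0% in brm 2, against 0% in WT 1 and 11.1% in WT 2. Its RNA stood at a log2 ratio of 3.95 (adjusted p 6.19e-16) in the authors' deposited table; strand use in counting is not stated, and FLC has antisense transcripts. MAF4 had 34.4% and 19.2% in brm, against 0% and 52.2% in WT. SVP had 20.8% and 11.8% in brm, against 0% and 14.7% in WT, and its RNA fell, at a log2 ratio of -0.60 per the authors' deposited table. FLM, MAF2 and MAF3 were met in no list.

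Of 6 floral integrators, 3 were met in the 3 like-called lists, beside 38.2% of all protein-coding genes. LFY, which specifies flower identity, had 75.9% and 100% covered in brm, against 72.5% and 79.0% in WT. FD, the partner of FT, had 56.5% and 36.4% in brm, against 48.2% and 54.7% in WT, and its RNA rose, with an adjusted p of 0.00148 per the authors' deposited table. FT was met in no list. Of 6 floral organ MADS genes, 1 was met in the 3 like-called lists, beside 38.2% of all protein-coding genes. This gene, AP3, was met in every list, with 38.9% and 37.8% in brm, against 38.6% and 35.5% in WT. The other members differed between lists or had no peak. PI was met in brm 1 and WT 1, SEP2 and SEP3 in brm 1 alone, and AG and SEP1 in no list.

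Of 6 salicylic acid immunity genes, 5 were higher in brm in the authors' deposited table, against 7.84% of all genes listed. PR1, a defence protein gene, had a log2 ratio of 3.36 there, with 55.5% and 0% of it covered in brm, against 0% and 63.0% in WT. PAD4 had 0% and 18.7% in brm, against 0% and 34.1% in WT. SAG101 had 25.2% and 20.2% in brm, against 0% and 25.2% in WT. EDS1 and NPR1 rose with no peak in any list. ICS1, the salicylic acid synthesis gene, did not pass, and had 50.97% and 49.4% in brm, against 19.3% and 57.1% in WT.

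Of 10 clock genes, 4 were met in the 3 like-called lists, again near the 38.2% of all protein-coding genes. CCA1, a morning factor, had 40.2% and 41.6% covered in brm, against 30.4% and 43.5% in WT, and its RNA fell, at a log2 ratio of -3.49 per the authors' deposited table. TOC1 rose, with a log2 ratio of 0.63 there, and was met in no list. Of 5 phosphate starvation genes, 2 were met in the 3 like-called lists, also near that share. PHT1;4 had 2530 and 1681 bp covered in brm, against 0 and 2296 bp in WT. MGD3 had 769 and 648 bp in brm, against 773 and 754 bp in WT. SPX1, a phosphate sensor, had 501 bp covered in both brm lists, against 501 bp in WT 1 and 0 bp in WT 2. PHO1;H1, a phosphate transporter, had 0 bp in both brm lists, against 0 bp in WT 1 and 1136 bp in WT 2. Both fell in RNA, at log2 ratios of -1.53 and -2.30 per the authors' deposited table, where 6.33% of all protein-coding genes listed were lower.

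**Figure D5:**
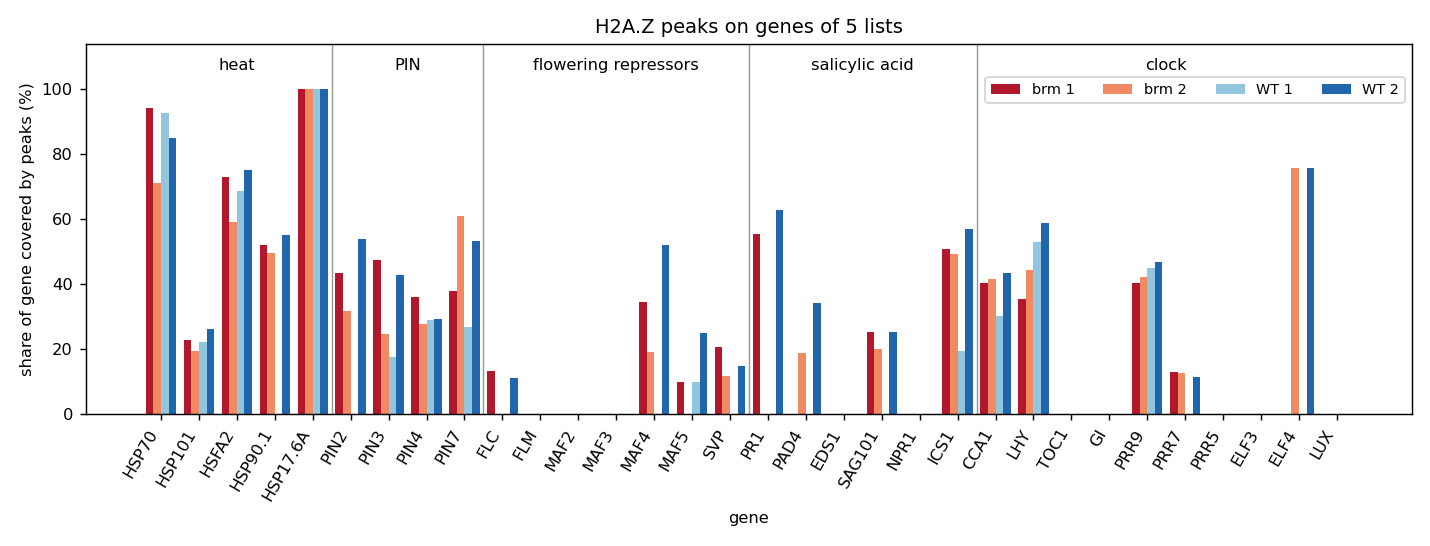
Bars give the percentage of each gene's length covered by peaks in brm 1, brm 2, WT 1 and WT 2 for genes of 5 lists, and a missing bar is 0%. HSP17.6A is covered whole in all 4 libraries, while EDS1, NPR1 and TOC1 have no bar.

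Of 6 genes of SWR1 and H2A.Z, 3 were met in the 3 like-called lists, where 38.2% of all protein-coding genes were. HTA11, an H2A.Z gene, was covered whole in brm 1, brm 2 and WT 2 and over 84.8% in WT 1. HTA8 had 53.5% and 62.2% in brm, against 59.9% and 58.3% in WT. HTA9 was met in no list. No gene of this list passed in the RNA table. Of 11 SWI/SNF genes, 4 were met in the 3 like-called lists, near the 38.2% of all protein-coding genes. BRM alone passed in the RNA table, where 13.8% of all rows were called in either direction. CHR23, another ATPase, had 18.7% and 17.9% covered in brm, against 18.0% and 17.9% in WT. Other members differed between replicates. SWI3A had 770 and 0 bp in brm, against 0 and 56 bp in WT. SWI3C had 758 and 0 bp in brm, against 626 and 0 bp in WT.

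Of 5 photosynthesis genes, 1 was met in the 3 like-called lists, beside 38.2% of all protein-coding genes. This gene, CAB2, was covered whole in brm 1, brm 2 and WT 2 and over 70.1% in WT 1. However, CAB2 has near-identical copies that may share tags. LHB1B2 and LHCA3 were met in no list, and RBCS1A was met only in brm 2, by 76 bp. LHCA1 had 45.5% and 0% in brm, against 0% and 86.9% in WT. Of 5 constitutively used genes, 2 were met in the 3 like-called lists, near the 38.2% of all protein-coding genes. GAPC1 had 22.1% and 28.4% covered in brm, against 0% and 27.0% in WT, and PP2AA3 was met in all 4 lists. ACT2, UBQ10 and EF1ALPHA were met in no list. In RNA UBQ10 rose, at a log2 ratio of 0.85, while EF1ALPHA and GAPC1 fell, at -0.60 and -0.74, per the authors' deposited table. Over all its rows, 13.8% were called in either direction.

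Nucleosome positions from MNase-seq were read from the authors' deposited table, where the median log2 fold change at the summit was 0.28 in regions with peaks of all 3 like-called lists, 0.27 in those of both brm lists and not WT 2, and 0.26 in those of WT 2 and neither brm list. Outside every peak it was 0.20, and over all 702244 nuclear positions 0.21. Positions called higher in brm, at a false discovery rate under 0.05 and a log2 fold change of at least 1, made up 3.49%, 3.06% and 3.16% of the 3 classes, against 2.53% of all positions. Those called lower made up 0.985%, 0.946% and 0.876%, against 1.65% of all positions. The 3 classes were thus closer to each other than to positions outside peaks. The table gives 1 value per genotype, so there is no replicate check.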

How the data were processed

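H2A.Z ChIP, RNA-seq and MNase-seq data of brm and WT shoots were used, with 3 RNA-seq and 2 MNase-seq libraries per genotype. The authors called peaks for each ChIP library with HOMER, set to its histone style and given the input, as the file headers record; the deposited score column holds 1 constant value, so positions alone were used. TAIR10 is the build in the submitters' processing notes, which also name Bowtie2, SAMtools, TopHat2, HTSeq and edgeR with no version. The RNA table holds log2 fold changes, average log2 CPM and p-values with adjusted p-values deposited by the authors. That table also holds 3 rows for reads assigned to no gene, which by their average log2 CPM took about 69.5% of the counted reads in the authors' fit, so the deposited average log2 CPM of genes is lower than it would be over reads in genes; these rows were left out here. The MNase table holds the deposited signal at nucleosome summits, fuzziness scores and log2 fold changes; its normalization is not given in the sources used here.

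Overlaps of at least 1 bp were counted in Python 3.11.15 with pandas 2.3.3 and tested on simulated lists. Centromeres were taken at 15, 4, 14, 4 and 12 Mb. Gene spans came from a RefSeq table of TAIR10.1, used since nucleosome profiles at gene ends matched in 25 stretches of 5 Mb to within 20 bp. Correlations at the best shift ran from 0.45 to 0.86. Each stretch was set against the profile over all stretches, so an offset common to all of them could not be seen. The RefSeq table has no strand, so whole genes replaced the planned window at gene starts. Of 21925 RNA rows, 21893 matched by locus tag. The genes named were those of 12 lists, the 5 widest regions of either genotype alone, peaks in most pieces or joining most peaks, the widest peaks, and the 5 genes at each end of the RNA table. Members and lists were chosen with earlier results of these data known. Alternatives were joined peaks, width and overlap minimums, other stretches and left-out libraries. The p-values over libraries rest on 2 replicates per genotype. For WT the spread includes the difference in calling thresholds between WT 1 and WT 2, which cannot be told apart from replicate spread. The lists are described by counts and examples, and 1 gene was left out of them and is not reported here. No sequence is printed.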

Additional observations from a re-analysis of the deposited data

How the results depend on the processing

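Of 94 alternative values for 20 results, 12 changed sign: 4 of the 2 against 2 differences, and 8 of the untested differences from WT 2 in peak number, covered length, median width and genes met. Of the 94, 33 untested values moved by more than the limit set for them. For the differences from WT 2, the share of brm peaks met by WT 2, and splitting and joining, that limit was the SD of the brm replicates. For WT 2 peaks met by both brm lists, RNA classes and nucleosome medians it was a 95% interval over peaks, genes or positions. Such an interval covers counting error only and no replicate spread. A fold minimum can only lower a share of genes called. With WT 1 in place of WT 2, brm minus WT was 5098.5 peaks, 6.94 Mb, 84 bp in median width and 19.3 points in genes met; 53.3% of brm peaks were then met, 73.3% of WT peaks were met by both brm lists, and 0.618% of WT peaks met 2 or more brm peaks. Leaving out one library, the 2 against 2 differences ran from -292.5 to 5098.5 peaks, from -1.37 to 6.94 Mb and from -53 to 84 bp; without WT 1 they were -292.5 peaks, -1.37 Mb and -53 bp, and without brm 1 the width was -30.5 bp. Against WT 2, leaving out a brm replicate gave -962 to 377 peaks, -2.92 to 0.19 Mb, -99 to -7 bp, -5.09 to 0.99 points in genes met, and 72.6% to 79.9% of WT 2 peaks met. With the replicate block the differences were 2403 peaks, 2.78 Mb and 15.5 bp, each with an exact sign-flip p of 1; the numbers are not stated to pair plants, and same-numbered lists deviated in opposite directions (replicate 1 above the mean in brm and below it in WT).

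Among peaks of at least 1000 bp the median width difference was 14.5 bp, 94.7% of brm peaks were met by WT 2, and 87.1% of WT 2 peaks by both brm lists. With 50% of the peak, these shares were 75.2% and 57.4%, and with 50% of both peaks 66.8% and 50.9%. Within 1 and 3 Mb of centromeres the difference was -0.018 and -0.40 points. With a log2 fold change of at least 1, genes met in both brm lists and not WT 2 were higher in 6.40% and lower in 3.02%, and genes met in WT 2 and neither brm list in 5.24% and 3.29%; with average log2 CPM of at least 1 these were 11.1%, 7.24%, 9.60% and 11.2%. Over all protein-coding genes listed, 5.04% were higher and 2.84% lower with the fold minimum, and 10.9% and 8.64% with the CPM minimum. With classes from all 4 lists, 10.9% of genes met in WT and neither brm list were higher. The median nucleosome log2 fold changes of the 3 classes were 0.17, 0.14 and 0.13 by the point value, and 0.17, 0.17 and 0.15 at positions of high WT signal. The causes were not tested. The windows at gene starts were not run, for lack of strand, and no list held an organelle peak to leave out. With 500 bp added on each side (chosen after seeing the data) the gene difference stayed at -2.05 points while brm 1 met 65.8% of genes, and with 250 bp covered it was -1.82. A list of positions cannot show a change in H2A.Z amount within a peak.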
